A study of Mus musculus with 6 samples.

Results

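The genes described here are 31 genes of glycolysis and of the response to low oxygen, read in 6 RNA-seq libraries of a mouse spermatogonial stem cell line. They were chosen by symbol, and for each of the 31 symbols 1 row among the 31384 genes of the count table was used. They comprise 24 genes of glucose transport, glycolysis, lactate and pyruvate handling, called enzyme members below although 4 are membrane carriers, and 7 targets of the hypoxia-inducible factors (HIF). Of the 31, 30 passed the filter on low counts, and Car9 did not.

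The 3 groups hold 2 libraries each, which carry the column letters A and B; paired values below give A first and B after it. In the LOVA group, 5 µM lovastatin, a statin that blocks cholesterol synthesis, was given instead of GDNF. In the NTC group no GDNF was given and nothing replaced it. In the PTC group the medium held 10 ng/mL GDNF, the growth factor that maintains self-renewal of these stem cells. All 3 groups had 10 ng/mL EGF, 10 ng/mL FGF2, 5000 U LIF, 6 mg/mL glucose, 1 mM pyruvate and 1 µL/mL DL-lactic acid, grew on mouse embryonic fibroblast feeders whose division mitomycin C had stopped, and were collected on day 18. The labels give no oxygen level, describe 1 cell line, and do not state if same-group libraries came from separate cultures, so p-values measure the spread between these libraries, which may be technical.

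Glycolysis splits glucose into pyruvate in the cytosol; glucose carriers and hexokinases bring glucose in and trap it, and lactate dehydrogenases and monocarboxylate carriers turn pyruvate into lactate and pass it out. Under low oxygen the prolyl hydroxylases that mark HIF-1α for destruction slow down, and HIF then switches on most glycolytic enzymes together with genes such as Vegfa, Bnip3 and Adm. Cultured spermatogonial stem cells are known to draw on glycolysis.

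Total counts ranged from 12454671 to 22668087 per library, so that a floor of 3 counts stood at 0.132 to 0.241 CPM (counts relative to library size), a limit from counting error only. The 31 members together took 0.552% and 0.557% of counts in LOVA, 0.602% and 0.607% in NTC, and 0.860% and 0.683% in PTC. Marker RNA of other cell types moved with the groups. The 20 fibroblast markers took 1.46% and 2.73% in LOVA, 1.63% and 2.62% in NTC, and 0.122% and 0.575% in PTC. The 21 pan-germ-cell markers took 0.375% and 0.200% in LOVA, 0.325% and 0.209% in NTC, and 0.568% and 0.580% in PTC. The 10 macrophage markers took 0.0413% and 0.0488% in LOVA, 0.186% and 0.232% in NTC, and 0.0273% and 0.0233% in PTC. None of these marker genes was at 0 in every library. Their part in the results on the members was not tested, and in bulk RNA fewer cells of a type and less RNA per cell cannot be told apart.

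On the scale of all genes, members moved in both directions without GDNF. In NTC against PTC, 17 of the 30 tested members were called: 7 were higher (Tpi1, Pgk1, Eno2, Ldhb, Vegfa, Bnip3 and Adm) and 10 lower (Slc2a1, Slc2a3, Hk1, Hk2, Gpi1, Aldoc, Eno1, Pkm, Pdk1 and Ddit4). A gene was called when the adjusted p of edgeR's quasi-likelihood test with Benjamini-Hochberg adjustment over 16121 genes was under 0.05. Of all genes tested, 34.5% were called in this comparison, 21.5% higher and 12.9% lower. In LOVA against PTC, 18 members were called, 7 higher and 11 lower, where 30.6% of all genes were called, 19.8% higher and 10.8% lower. Both comparisons use the same PTC libraries. An unadjusted p under 0.05 was reached by 24 members in NTC against PTC (48.1% of all genes) and by 19 in LOVA against PTC (46.3% of all genes). Both NTC libraries lay above both PTC libraries for 10 members (39.0% of all genes) and below for 14 (38.5%); both LOVA libraries lay above both PTC libraries for 9 (38.4%) and below for 14 (37.9%). The median log2 fold change of the members was -0.14 in NTC minus PTC, beside -0.02 over all genes tested, and -0.20 in LOVA minus PTC, beside 0.0034.

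The lower calls depended on the scale. When the 21 pan-germ-cell genes set the library scale in place of all genes, the median of all genes tested moved to 1.02 in NTC minus PTC and to 1.01 in LOVA minus PTC, and the members' medians to 0.95 and 0.83. On that scale 10 members were called in NTC against PTC and 8 in LOVA against PTC, all of them higher and none lower, and 24 and 25 of the 30 had positive log2 fold changes. Calls over all 16121 genes tested were as one-sided there. They were 5050 higher and 38 lower in NTC against PTC, and 4627 higher and 30 lower in LOVA against PTC. Single libraries also decided calls. In NTC against PTC, leaving out NTC B took the call from every member, and leaving out NTC A or PTC A took it from many. Calls over the whole table fell in each of these fits as well. Pgk1, Eno2, Ldhb, Pdk1, Ddit4 and Adm kept their call without any 1 library other than NTC B. The other 11 called members lost it without at least 1 more library. In LOVA against PTC, many members lost their call without PTC A or without LOVA B, and calls over the whole table fell as well. Eno2, Ldhb, Ddit4 and Adm kept their call in all 6 fits that left out 1 library.

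**Figure D1:**
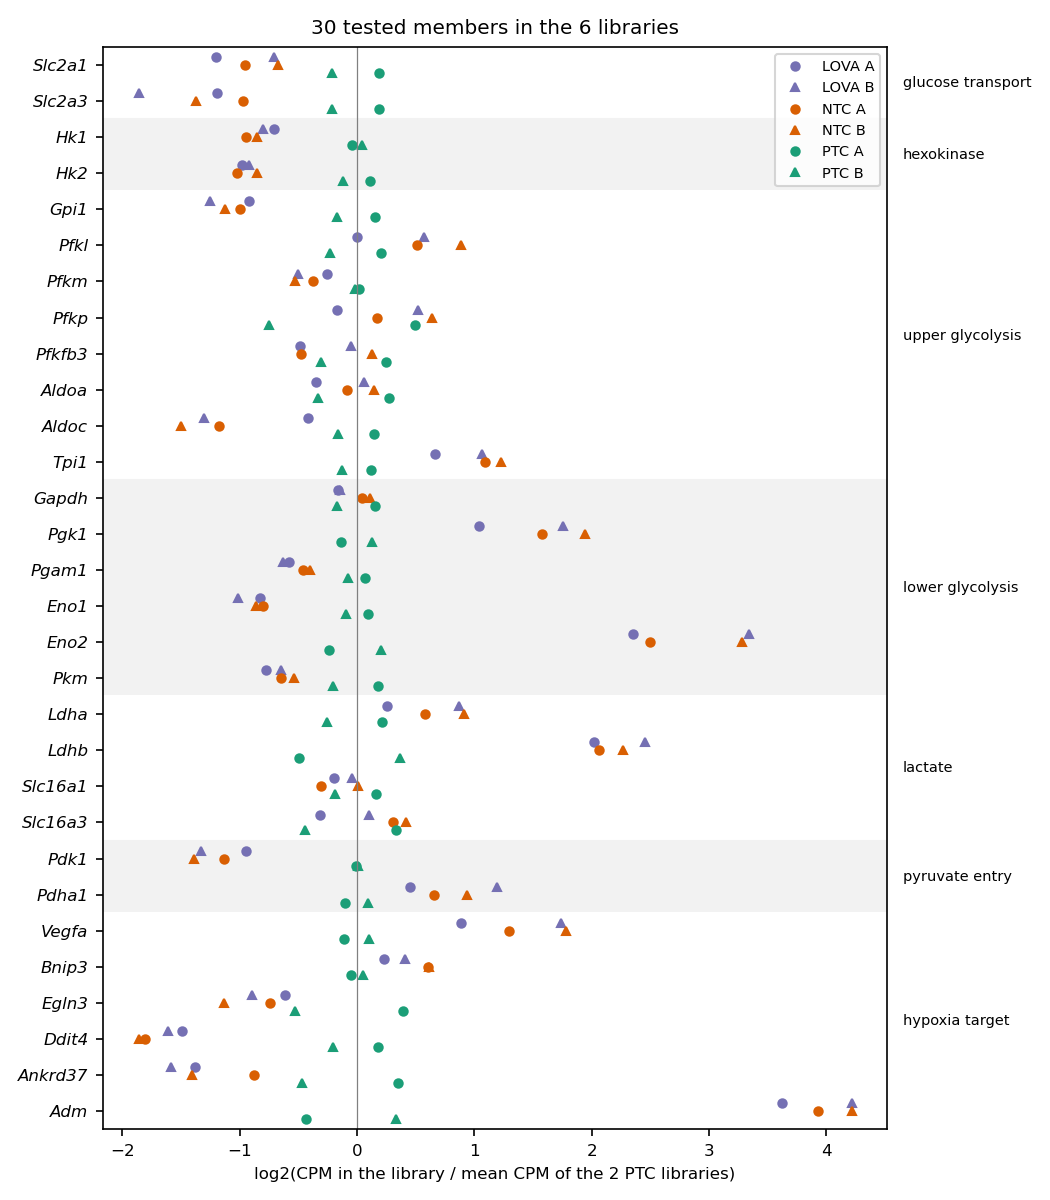
CPM of the 30 tested members in each library, on the x axis as log2 of the ratio to the mean of the 2 PTC libraries, with members grouped by role on the y axis; circles are A libraries and triangles B libraries, in purple for LOVA, orange for NTC and green for PTC. Adm lies farthest to the right in all 4 libraries without GDNF and Ddit4 among the farthest to the left; LOVA and NTC points lie close to each other for most members.

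RNA of the genes of glucose entry and trapping was lower without GDNF on the scale of all genes. In both comparisons 4 of 4 genes were called lower. Of all genes tested, 12.9% were called lower in NTC against PTC and 10.8% in LOVA against PTC. Scaled to germ-cell genes, Slc2a1, Hk1 and Hk2 turned to small positive values, Slc2a3 stayed negative, and none was called. Glucose uptake itself was not measured. Slc2a1 encodes GLUT1, the basal glucose carrier (gene ID ENSMUSG00000028645, chr4:119108711-119137983 in mm10). It had 66.9 and 94.7 CPM in the LOVA libraries, 79.7 and 96.8 CPM in the NTC libraries and 176 and 133 CPM in the PTC libraries. Every PTC library lay above the 4 others. Slc2a1 was 1.75-fold lower in NTC than in PTC (log2 fold change -0.81 ± 0.24, SE; edgeR adjusted p = 0.0414) and 1.91-fold lower in LOVA than in PTC (-0.93 ± 0.24; edgeR adjusted p = 0.0312). Slc2a3, which encodes the high-affinity carrier GLUT3 (chr6:122727809-122801640), had 63.5 and 39.9 CPM in the LOVA libraries, 73.9 and 55.8 CPM in the NTC libraries and 165 and 125 CPM in the PTC libraries. Its groups with and without GDNF did not overlap either. The log2 fold change of Slc2a3 was -1.16 ± 0.28 in NTC minus PTC and -1.48 ± 0.29 in LOVA minus PTC (edgeR adjusted p = 0.0238 and 0.0185).

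Hexokinases phosphorylate glucose and so keep it in the cell. Hk1, the isozyme found in most tissues (chr10:62268855-62379908), had 93.7 and 88.0 CPM in the LOVA libraries, 79.4 and 85.2 CPM in the NTC libraries and 149 and 158 CPM in the PTC libraries. Hk2, the inducible isozyme bound to mitochondria (chr6:82725025-82774454), had 43.3 and 45.0 CPM in the LOVA libraries, 41.9 and 47.0 CPM in the NTC libraries and 91.9 and 78.4 CPM in the PTC libraries. For both, the PTC libraries stood clear of the rest, and LOVA and NTC lay within a few CPM of each other for Hk2. Hk1 changed by -0.90 ± 0.16 and Hk2 by -0.94 ± 0.18 on the log2 scale in NTC minus PTC (edgeR adjusted p = 0.0121 and 0.0141). Scaled to germ-cell genes, the 2 values were 0.16 and 0.13, below the shift of 1.02 of all genes on that scale, and neither was called. In LOVA minus PTC, Hk1 changed by -0.76 ± 0.16 and Hk2 by -0.95 ± 0.18 (edgeR adjusted p = 0.0204 and 0.0182).

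The upper part of the pathway was mixed: of 8 genes, Gpi1 and Aldoc were lower and Tpi1 higher in NTC against PTC, and 5 were not called. Gpi1 encodes glucose-6-phosphate isomerase, the enzyme after hexokinase (chr7:34201330-34230336). It had 475 and 378 CPM in the LOVA libraries, 451 and 413 CPM in the NTC libraries and 999.8 and 800.4 CPM in the PTC libraries. Both PTC libraries lay far above every other, and the log2 fold change was -1.06 ± 0.19 in NTC minus PTC and -1.08 ± 0.19 in LOVA minus PTC (edgeR adjusted p = 0.0131 and 0.0174). Scaled to germ-cell genes, Gpi1 was at -0.023 and -0.11, with no call.

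Tpi1 moved the other way. It encodes triosephosphate isomerase, which interconverts the triose phosphates made by aldolase (chr6:124810586-124814296). Tpi1 had 209.6 and 278 CPM in the LOVA libraries, 282 and 310.4 CPM in the NTC libraries and 143 and 121 CPM in the PTC libraries. All 4 libraries without GDNF lay above both PTC libraries. Tpi1 was 2.23-fold higher in NTC than in PTC (log2 1.16 ± 0.20; edgeR adjusted p = 0.0116) and 1.84-fold higher in LOVA than in PTC (0.88 ± 0.20; edgeR adjusted p = 0.0236).

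Aldolases split fructose bisphosphate. Aldoa, the muscle-type isozyme that most tissues use (chr7:126795234-126800751), had 329 and 438 CPM in the LOVA libraries, 397 and 466 CPM in the NTC libraries and 507 and 334 CPM in the PTC libraries, and the groups overlapped. Aldoc, the brain-type isozyme (chr11:78322968-78327781), had 50.1 and 27.1 CPM in the LOVA libraries, 29.6 and 23.6 CPM in the NTC libraries and 73.9 and 59.8 CPM in the PTC libraries. The PTC libraries were the highest, and LOVA A lay between them and the other 3. The log2 fold change of Aldoc was -1.33 ± 0.32 in NTC minus PTC (edgeR adjusted p = 0.0229); in LOVA minus PTC it was -0.79 ± 0.31 and not called (edgeR adjusted p = 0.0933), though called without the filter on low counts and without LOVA A. LOVA minus NTC was 0.54 ± 0.32 and not called.

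None of the 3 phosphofructokinases, which catalyse the committed step of glycolysis, was called in the fit over all 6 libraries on the scale of all genes, nor was Pfkfb3, whose product makes their activator fructose 2,6-bisphosphate. Pfkl, the liver-type subunit (chr10:77986947-78010083), had 41.2 and 61.2 CPM in the LOVA libraries, 58.6 and 76.1 CPM in the NTC libraries and 47.3 and 35.0 CPM in the PTC libraries, and its log2 fold change was 0.71 ± 0.27 in NTC minus PTC (edgeR adjusted p = 0.0806). Pfkm, the muscle-type subunit (chr15:98092589-98132451), had 58.0 and 48.9 CPM in the LOVA libraries, 53.3 and 48.1 CPM in the NTC libraries and 69.9 and 68.4 CPM in the PTC libraries, with a log2 fold change of -0.45 ± 0.18 (edgeR adjusted p = 0.0902). Both NTC libraries thus lay above both PTC libraries for Pfkl and below them for Pfkm. Pfkl was near the threshold: on the same scale it was called in NTC against PTC without the filter on low counts, in a fit of NTC and PTC alone, and without LOVA A or LOVA B, with adjusted p from 0.0297 to 0.364 over 13 alternatives. On the germ-cell scale Pfkl was also called, at 1.79. Pfkp, the platelet-type subunit (chr13:6579768-6648777), had 34.6 and 55.9 CPM in the LOVA libraries, 43.9 and 60.7 CPM in the NTC libraries and 54.9 and 23.2 CPM in the PTC libraries. The PTC libraries differed from each other by more than the group means did, with an interval of -0.60 to 1.45 for its log2 fold change in NTC minus PTC. Pfkfb3 (chr2:11471433-11554077) had 28.3 and 38.1 CPM in the LOVA libraries, 28.5 and 43.3 CPM in the NTC libraries and 47.2 and 32.1 CPM in the PTC libraries, with overlap of all groups and an interval of -0.86 to 0.58 in NTC minus PTC. In LOVA minus PTC the log2 fold changes of Pfkl, Pfkm, Pfkp and Pfkfb3 were 0.32, -0.37, 0.22 and -0.25, none called.

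Along the lower part, Pgk1 and Eno2 were higher and Eno1 and Pkm lower without GDNF, while Gapdh was not called; scaled to germ-cell genes, Eno1 and Pkm turned positive without a call. Gapdh encodes the dehydrogenase that makes NADH (chr6:125161715-125166467). It had 956 and 971 CPM in the LOVA libraries, 1102 and 1155 CPM in the NTC libraries and 1189 and 954 CPM in the PTC libraries. The groups overlapped between NTC and PTC and between LOVA and PTC, with log2 fold changes of 0.074 (95% interval -0.32 to 0.47) and -0.15 (-0.55 to 0.24). Pgk1 encodes phosphoglycerate kinase, the first step that yields ATP (chrX:106187100-106203699). It had 214 and 350.4 CPM in the LOVA libraries, 309.9 and 399.6 CPM in the NTC libraries and 94.4 and 114 CPM in the PTC libraries. The lowest library without GDNF, LOVA A, lay well above the highest PTC library. Pgk1 was 3.41-fold higher in NTC than in PTC (log2 1.77 ± 0.28; edgeR adjusted p = 0.0102) and 2.71-fold higher in LOVA than in PTC (1.44 ± 0.27; edgeR adjusted p = 0.0182).

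Pgam1, the phosphoglycerate mutase of most tissues (chr19:41911923-41918660), had 425 and 408 CPM in the LOVA libraries, 461 and 479 CPM in the NTC libraries and 665 and 602 CPM in the PTC libraries. PTC was above both other groups. LOVA minus PTC was called (log2 -0.61 ± 0.15; edgeR adjusted p = 0.028), and NTC minus PTC, at -0.43 ± 0.15, was not (edgeR adjusted p = 0.0612). In fits of the 2 groups alone this turned round, NTC against PTC being called and LOVA against PTC not. Only 1 of the 6 fits that left out 1 library kept the call of Pgam1 in LOVA against PTC. Scaled to germ-cell genes, Pgam1 was at 0.40 in LOVA minus PTC. The difference between these comparisons is LOVA minus NTC, which was -0.17 ± 0.15 and not called.

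The enolases, which make phosphoenolpyruvate, went in opposite directions on the scale of all genes. Eno1, the ubiquitous isozyme (chr4:150236721-150248879), had 437 and 383 CPM in the LOVA libraries, 445 and 427 CPM in the NTC libraries and 825 and 726 CPM in the PTC libraries. Eno2, the isozyme known from neurons (chr6:124760053-124769673), had 20.4 and 40.5 CPM in the LOVA libraries, 22.5 and 38.8 CPM in the NTC libraries and 3.38 and 4.60 CPM in the PTC libraries. PTC was clearly the highest group for Eno1 and the lowest for Eno2, with no overlap. Eno2 was 7.63-fold higher in NTC than in PTC and 7.57-fold higher in LOVA than in PTC (log2 2.93 ± 0.45 and 2.92 ± 0.45; edgeR adjusted p = 0.01 and 0.0167). Eno1 changed by -0.83 ± 0.16 and -0.92 ± 0.16 in the same comparisons (edgeR adjusted p = 0.0143 and 0.0171). Reads of Eno1 may be split with its near-identical retrocopy Eno1b; with both summed, Eno1 was at -0.57 ± 0.15 in NTC minus PTC and -0.71 ± 0.15 in LOVA minus PTC (edgeR adjusted p = 0.0283 and 0.0212). Gapdh, Pgk1, Pgam1, Ldha, Tpi1 and Aldoa also have processed copies in the mouse genome, and how the counting divided such reads is not given in the sources used here.

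Pkm, the pyruvate kinase of most tissues other than liver (chr9:59656368-59679375), ends the pathway. It had 823 and 898 CPM in the LOVA libraries, 896 and 968 CPM in the NTC libraries and 1596 and 1219 CPM in the PTC libraries. The PTC libraries were the highest, and PTC B lay nearer to the rest than PTC A. Pkm changed by -0.59 ± 0.18 in NTC minus PTC and -0.71 ± 0.18 in LOVA minus PTC (edgeR adjusted p = 0.0436 and 0.0305), and scaled to germ-cell genes it was at 0.46 and 0.32 without a call. The call of Pkm in LOVA against PTC was lost in a fit of those groups alone. Of the 6 fits that left out 1 library, 2 kept the call of Pkm in NTC against PTC and 1 kept that in LOVA against PTC. The counts do not separate the splice forms PKM1 and PKM2.

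**Figure D2:**
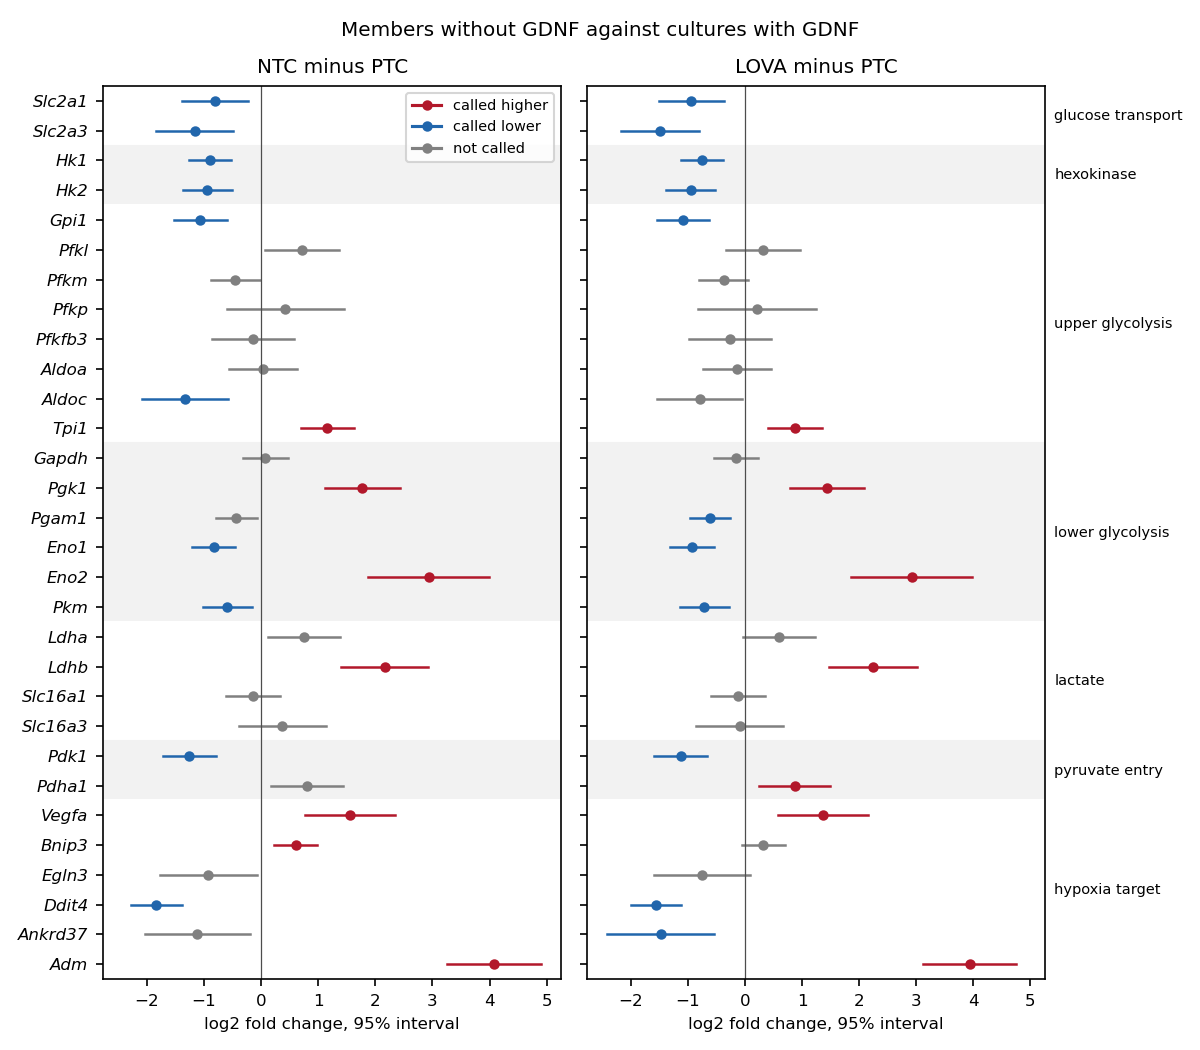
Log2 fold change (points, x axis) with its 95% interval (lines) for each tested member (y axis, by role), in NTC minus PTC on the left and LOVA minus PTC on the right; red members were called higher, blue lower and grey were not called, on the scale of all genes. Glucose carriers, hexokinases, Gpi1, Eno1, Pkm, Pdk1 and Ddit4 are blue in both panels, and Tpi1, Pgk1, Eno2, Ldhb, Vegfa and Adm are red in both; scaled to germ-cell genes no member is called lower, and of the blue members Slc2a1, Hk1, Hk2, Eno1 and Pkm turn positive in both panels and Pgam1 in the right one.

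On the lactate side, Ldhb was higher without GDNF, and Ldha and the 2 lactate carriers were not called in the fit over all 6 libraries. Ldhb encodes the heart-type subunit of lactate dehydrogenase, which favours lactate oxidation (chr6:142490249-142507957). It had 63.7 and 86.3 CPM in the LOVA libraries, 65.8 and 76.1 CPM in the NTC libraries and 11.2 and 20.4 CPM in the PTC libraries. The 4 libraries without GDNF lay far above both PTC libraries. Ldhb was 4.49-fold higher in NTC and 4.74-fold higher in LOVA than in PTC (log2 2.17 ± 0.32 and 2.25 ± 0.32; edgeR adjusted p = 0.00971 and 0.0167). Ldha, the muscle-type subunit that favours lactate production (chr7:46841475-46855627), had 265 and 405 CPM in the LOVA libraries, 332 and 417 CPM in the NTC libraries and 258 and 186 CPM in the PTC libraries. LOVA A exceeded PTC A by only a few CPM, and Ldha was at 0.75 ± 0.27 in NTC minus PTC and 0.59 ± 0.27 in LOVA minus PTC (edgeR adjusted p = 0.0658 and 0.126). In NTC against PTC Ldha was called by limma-voom, without the filter on low counts, in a fit of those groups alone, without LOVA A or LOVA B, and on the germ-cell scale, at 1.83; without LOVA A it was also called in LOVA against PTC. Slc16a1, which encodes the carrier MCT1 (chr3:104638668-104658462), had 99.2 and 110.1 CPM in the LOVA libraries, 91.8 and 114 CPM in the NTC libraries and 127 and 99.6 CPM in the PTC libraries. Slc16a3, which encodes the lactate exporter MCT4 (chr11:120948480-120960868), had 12.4 and 16.7 CPM in the LOVA libraries, 19.3 and 20.7 CPM in the NTC libraries and 19.6 and 11.5 CPM in the PTC libraries. Both overlapped between PTC and each other group; their log2 fold changes in NTC minus PTC were -0.14 (95% interval -0.61 to 0.33) and 0.37 (-0.39 to 1.13).

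At the entry of pyruvate into mitochondria, Pdk1 was lower without GDNF, while the call of Pdha1 changed with the fit. Pdk1 encodes pyruvate dehydrogenase kinase, which switches the dehydrogenase off and is itself a HIF target (chr2:71873224-71903858). It had 83.4 and 64.0 CPM in the LOVA libraries, 73.2 and 61.1 CPM in the NTC libraries and 159 and 162 CPM in the PTC libraries. The PTC libraries were nearly equal and far above the others. Pdk1 changed by -1.26 ± 0.20 in NTC minus PTC and -1.12 ± 0.20 in LOVA minus PTC (edgeR adjusted p = 0.0102 and 0.0171), and by -0.23 and -0.16 on the germ-cell scale, without a call. Pdha1 encodes the catalytic subunit that this kinase acts on (chrX:160122209-160138413). It had 148 and 248 CPM in the LOVA libraries, 171 and 207 CPM in the NTC libraries and 101 and 116 CPM in the PTC libraries. Both PTC libraries were lowest, with log2 fold changes of 0.80 ± 0.26 in NTC minus PTC (edgeR adjusted p = 0.054) and 0.87 ± 0.26 in LOVA minus PTC (edgeR adjusted p = 0.0467). LOVA minus NTC, the difference between these, was 0.069 ± 0.26 and not called. In NTC against PTC Pdha1 was called in 8 of 13 alternatives, DESeq2 and limma-voom among them; in LOVA against PTC it was called in 7 of 13, and not in a fit of those groups alone or in 5 of the 6 fits that left out 1 library. On the germ-cell scale Pdha1 was called in both, at 1.88 and 1.98.

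Levels per kilobase of exon gave the balance of isozymes within a step, which does not depend on the scaling of a library. The size of a share does depend on the annotated exon lengths, such as 5379 bases for Eno1 and 4705 for Eno2. Eno1b was not counted among the enolases. Eno2 made up a mean of 7.93% of the 2 enolases in LOVA, 7.44% in NTC and 0.593% in PTC. Ldhb made up a mean of 32.3% of lactate dehydrogenase in LOVA, 28.6% in NTC and 13.5% in PTC, where the libraries stood at 8.36% and 18.7%. Neither share overlapped between PTC and the other groups. Pfkl made up a mean of 28.2% of the phosphofructokinases in LOVA, 34.5% in NTC and 20.6% in PTC, also without overlap. Aldoc took 11.9% and 5.23% of the aldolases in LOVA, 6.24% and 4.32% in NTC, and 11.5% and 13.8% in PTC, so LOVA A lay within the PTC range. Hk2 against Hk1, Slc2a3 against Slc2a1 and Slc16a3 against Slc16a1 overlapped between PTC and at least 1 other group. With 2 libraries a group an exact two-sided permutation test cannot give a p below 0.333, so none was run on the shares.

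**Figure D3:**
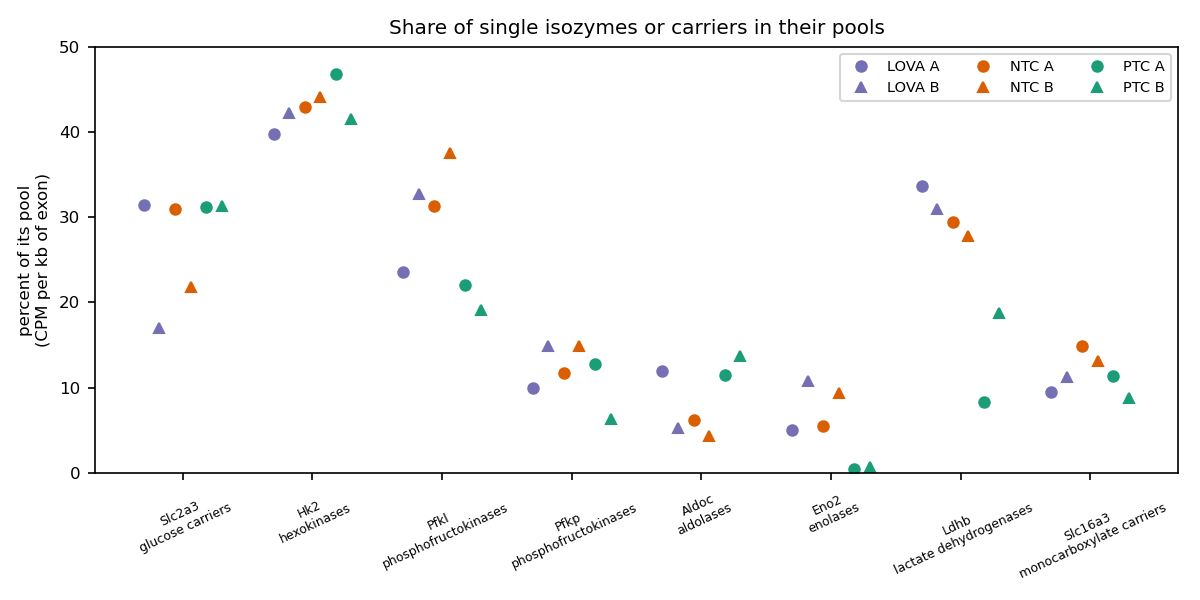
Share of 1 isozyme or carrier (x axis) in its pool, in percent of the pool's CPM per kilobase of exon (y axis), in each library; purple is LOVA, orange NTC and green PTC, circles are A and triangles B libraries. Eno2 and Ldhb take smaller shares in both PTC libraries than in the 4 libraries without GDNF, and the Hk2 share lies between 39.8% and 46.9% in all 6 libraries.

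Per kilobase of exon, the most abundant members in PTC were Pgam1, at a mean of 319.7 CPM per kb, Pkm at 281 and Gapdh at 259. This order rests on the annotated exon lengths, 1982 bases for Pgam1, 5001 for Pkm and 4133 for Gapdh. Before that division, mean CPM in PTC was 634 for Pgam1, below Pkm (1407) and Gapdh (1072). If these lengths match those of the transcripts read was not tested. In NTC the order began with Gapdh (273), Pgam1 (237), Pkm (186) and Pgk1 (158). Pgk1 ranked 5 in LOVA and 4 in NTC, against 10 in PTC. Adm ranked 11 and 9 in LOVA and NTC, against 26 in PTC, and Ddit4 ranked 10 and 11, against 4.

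The hypoxia targets, like the enzyme members, split in direction. In NTC against PTC, Vegfa, Bnip3 and Adm were higher, Ddit4 was lower (not called when scaled to germ-cell genes), and Egln3 and Ankrd37 were not called. Promoter sequence is shown for the 4 called targets and for Pgk1 and Pdk1, a pair of HIF-responsive metabolic genes that moved in opposite directions. Each window runs 300 bases, with 250 before and 50 after the RefSeq start (GRCm38.p6), written 5′ to 3′ on the gene's strand. Capitals mark the core of the HIF-binding element in its ACGTG form or its reverse complement CACGT.
Ddit4, chr10:59951721-59952020, minus strand: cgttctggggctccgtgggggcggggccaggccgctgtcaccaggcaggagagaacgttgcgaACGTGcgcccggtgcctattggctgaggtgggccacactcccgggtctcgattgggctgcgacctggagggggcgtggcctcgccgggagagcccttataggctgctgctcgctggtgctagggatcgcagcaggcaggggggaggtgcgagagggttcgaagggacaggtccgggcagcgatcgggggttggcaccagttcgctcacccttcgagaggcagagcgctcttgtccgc
Pdk1, chr2:71872974-71873273, plus strand: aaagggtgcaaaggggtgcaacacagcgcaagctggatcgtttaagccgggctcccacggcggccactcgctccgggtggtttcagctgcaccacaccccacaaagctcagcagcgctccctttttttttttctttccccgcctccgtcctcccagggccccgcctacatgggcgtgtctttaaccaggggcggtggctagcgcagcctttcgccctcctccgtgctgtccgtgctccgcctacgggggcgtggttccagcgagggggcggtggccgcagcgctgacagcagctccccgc
Adm, chr7:110627407-110627706, plus strand: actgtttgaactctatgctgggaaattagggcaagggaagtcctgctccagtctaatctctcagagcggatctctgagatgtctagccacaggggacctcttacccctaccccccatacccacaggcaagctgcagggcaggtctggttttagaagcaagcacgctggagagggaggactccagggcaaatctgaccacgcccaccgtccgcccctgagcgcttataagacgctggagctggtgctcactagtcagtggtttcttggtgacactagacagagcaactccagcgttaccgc
Vegfa, chr17:46032328-46032627, minus strand: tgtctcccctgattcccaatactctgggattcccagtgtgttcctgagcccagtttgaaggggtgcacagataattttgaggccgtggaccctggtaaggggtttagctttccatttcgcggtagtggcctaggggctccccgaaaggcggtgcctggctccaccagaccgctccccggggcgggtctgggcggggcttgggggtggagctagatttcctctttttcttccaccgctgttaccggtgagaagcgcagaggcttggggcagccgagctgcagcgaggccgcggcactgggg
Bnip3, chr7:138909457-138909756, minus strand: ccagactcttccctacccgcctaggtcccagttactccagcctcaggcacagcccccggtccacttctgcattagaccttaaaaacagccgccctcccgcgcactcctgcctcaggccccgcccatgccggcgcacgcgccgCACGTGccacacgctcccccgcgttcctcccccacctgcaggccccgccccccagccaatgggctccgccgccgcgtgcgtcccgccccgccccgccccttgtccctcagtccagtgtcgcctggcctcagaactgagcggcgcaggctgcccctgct
Pgk1, chrX:106186850-106187149, plus strand: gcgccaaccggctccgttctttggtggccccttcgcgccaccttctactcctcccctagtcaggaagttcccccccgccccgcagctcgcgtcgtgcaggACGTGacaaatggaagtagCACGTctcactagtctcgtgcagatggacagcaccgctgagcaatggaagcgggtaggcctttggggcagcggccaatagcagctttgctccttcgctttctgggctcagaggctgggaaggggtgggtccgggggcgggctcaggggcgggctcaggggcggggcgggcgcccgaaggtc
Searched on both strands, ACGTG was found in Ddit4, Bnip3 and Pgk1, and not in Pdk1, Adm or Vegfa. In Bnip3 the forward and reverse matches of ACGTG overlap in the palindrome CACGTG. The GCGTG form, which is not marked, occurred 2 times in Pdk1, 2 in Adm, 3 in Bnip3 and 1 in Ddit4, and not in Pgk1 or Vegfa. RefSeq windows matched 30 of the 31 members; ACGTG was in 16 of 30 (53.3%), in 5 of 7 hypoxia targets (71.4%) and in 11 of 23 enzyme members (47.8%). It was in 24.8% of the 12166 windows of genes tested and in 20.7% of all 20085 windows. The GCGTG form was in 53.3% of member windows and 49.8% of those of genes tested, and CACGTG in 13.3% and 10.1%. A match describes letters in a window and not a bound site, and called members of both directions occur with and without it. Sequence outside the 300 bases was not searched, so a missing match does not show that a gene lacks the element. The RefSeq starts used for Ankrd37 and Ldha lay 5857 and 4329 bases from the annotated gene starts.

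Adm had the largest change of the 30 tested members. It encodes adrenomedullin, a vasodilator peptide (ENSMUSG00000030790, chr7:110627661-110629820). Adm had 79.2 and 119.5 CPM in the LOVA libraries, 98.1 and 119 CPM in the NTC libraries and 4.76 and 8.09 CPM in the PTC libraries. Even the lowest library without GDNF, LOVA A, lay far above the highest PTC library. Adm was 16.8-fold higher in NTC and 15.3-fold higher in LOVA than in PTC (log2 4.07 ± 0.35 and 3.94 ± 0.34; edgeR adjusted p = 0.00795 and 0.0167). Vegfa, the angiogenic growth factor (chr17:46016993-46032369), had 26.2 and 47.3 CPM in the LOVA libraries, 34.8 and 48.7 CPM in the NTC libraries and 13.1 and 15.2 CPM in the PTC libraries. Neither LOVA nor NTC overlapped PTC, and Vegfa changed by 1.56 ± 0.33 and 1.37 ± 0.33 in the same comparisons (edgeR adjusted p = 0.0175 and 0.027). Bnip3, a receptor for the removal of mitochondria (chr7:138890836-138909519), had 89.5 and 101 CPM in the LOVA libraries, 116 and 116 CPM in the NTC libraries and 73.6 and 78.8 CPM in the PTC libraries. LOVA lay between the other groups, and Bnip3 was called in NTC against PTC (0.61 ± 0.16; edgeR adjusted p = 0.0291) but not in LOVA against PTC (0.32 ± 0.16; edgeR adjusted p = 0.155). The difference itself, LOVA minus NTC, was -0.28 ± 0.16 and not called. Without the filter on low counts Bnip3 was not called in NTC against PTC, and on the germ-cell scale it was called in both comparisons with PTC.

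Ddit4 was lower without GDNF. It encodes REDD1, an inhibitor of mTORC1 that also responds to stress hormones and to nutrient and DNA stress (ENSMUSG00000020108, chr10:59949669-59951834). Ddit4 had 114 and 105 CPM in the LOVA libraries, 91.7 and 88.2 CPM in the NTC libraries and 363 and 279 CPM in the PTC libraries. Both PTC libraries lay far above the rest. Ddit4 was 3.57-fold lower in NTC and 2.93-fold lower in LOVA than in PTC (log2 -1.83 ± 0.19 and -1.55 ± 0.19; edgeR adjusted p = 0.00795 and 0.0167). On the germ-cell scale it stayed negative, at -0.79 and -0.55, without a call. Ankrd37, a small ankyrin-repeat protein induced by HIF (chr8:45996902-46005707), had 4.84 and 4.21 CPM in the LOVA libraries, 6.84 and 4.77 CPM in the NTC libraries and 16.1 and 9.11 CPM in the PTC libraries. It was below both PTC libraries in every library without GDNF, at -1.47 ± 0.39 in LOVA minus PTC, which was called (edgeR adjusted p = 0.0334), and at -1.12 ± 0.39 in NTC minus PTC, which was not (edgeR adjusted p = 0.0615). LOVA minus NTC was -0.35 ± 0.40 and not called. The call in LOVA against PTC was lost in a fit of those groups alone, on the germ-cell scale and in 4 of the 6 fits that left out 1 library, and NTC against PTC was called by DESeq2 and without the filter on low counts. Egln3, the HIF prolyl hydroxylase PHD3 that HIF itself induces (chr12:54178981-54203860), had 14.7 and 12.1 CPM in the LOVA libraries, 13.5 and 10.3 CPM in the NTC libraries and 29.6 and 15.6 CPM in the PTC libraries. PTC A was far above the other 5, and Egln3 was at -0.92 ± 0.36 and -0.75 ± 0.36 in NTC minus PTC and LOVA minus PTC, with no call. Egln3 was called in NTC against PTC without the filter on low counts and without PTC B. Car9, carbonic anhydrase 9, often used as a marker of hypoxia (chr4:43506966-43513729), had 4 and 6 counts in LOVA, 2 and 15 in NTC, and 2 and 13 in PTC. In each group 1 library was at or near the floor of 3 counts, so a difference was not detectable at this depth.

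Set against each other, enzyme members and hypoxia targets had near-equal median fold changes, while the gap between their median levels differed between groups. In NTC minus PTC the median log2 fold change of the 6 tested hypoxia targets was -0.16 and that of the 24 enzyme members -0.14, a difference of -0.02. That difference was -0.32 without NTC A and 0.27 without NTC B. In LOVA minus PTC the median fold changes were -0.21 and -0.20. The hypoxia targets spread more widely, over -1.83 to 4.07 in NTC minus PTC, beside -1.33 to 2.93 for the enzyme members. None of the targets lay near their median of -0.16. Egln3, Ankrd37 and Ddit4 were at -0.92, -1.12 and -1.83, and Bnip3, Vegfa and Adm at 0.61, 1.56 and 4.07. Near-equal medians thus do not show that the targets moved like the enzyme members. Within each library, the median log2 CPM of the hypoxia targets minus that of the enzyme members was -0.96 and -0.40 in LOVA, -0.49 and -0.47 in NTC, and -2.62 and -2.93 in PTC, with a pooled SD within groups of 0.26. The libraries without GDNF thus had the smaller gap, without overlap. The median of the hypoxia targets rested on different genes, however. By group means it lay between Vegfa (14.1 CPM) and Egln3 (22.6) in PTC, and between Vegfa (41.7) and Ddit4 (90.0) in NTC. Adm was the lowest of the 6 in PTC (6.43 CPM) and above Ddit4 in NTC (109). The gap therefore does not show a shift of the hypoxia targets as a set, and log2 CPM is not per length. Of the 24 enzyme members, 4 were called higher and 9 lower in NTC against PTC, and of the 6 hypoxia targets 3 higher and 1 lower, beside 21.5% higher and 12.9% lower of all genes tested. On the germ-cell scale the counts were 7 higher and 0 lower for the enzyme members, and 3 and 0 for the hypoxia targets. Of all 16121 genes tested, 5050 were called higher and 38 lower on that scale.

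No member was called between lovastatin and no addition. In LOVA against NTC, 0 of 30 members and 0.0% of all genes were called by edgeR. At an unadjusted p under 0.05, 0 members stood against 3.48% of all genes (561). DESeq2 called 120 genes of the table and limma-voom 4, with 0 members among either. The log2 fold changes of the members lay between -0.46 (Slc16a3) and 0.54 (Aldoc), with 9 positive and 21 negative values. Their median was -0.12, beside 0.0062 over all genes tested. The sign changed for 11 of the 30 members without LOVA A and for 9 without NTC B. The 95% intervals of 24 members lay within a 2-fold change either way, and the widest bounds were -1.29 (Ankrd37) and 1.29 (Aldoc), so a missing call does not show that the groups were alike. For Adm the interval was -0.85 to 0.58, for Pgk1 -0.97 to 0.30, for Ddit4 -0.15 to 0.72 and for Hk2 -0.44 to 0.42. Both LOVA libraries lay above both NTC libraries for 2 members, Hk1 and Ddit4, and below for 5, namely Tpi1, Gapdh, Pgam1, Slc16a3 and Bnip3, where 12.7% and 13.0% of all genes did so.

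**Figure D4:**
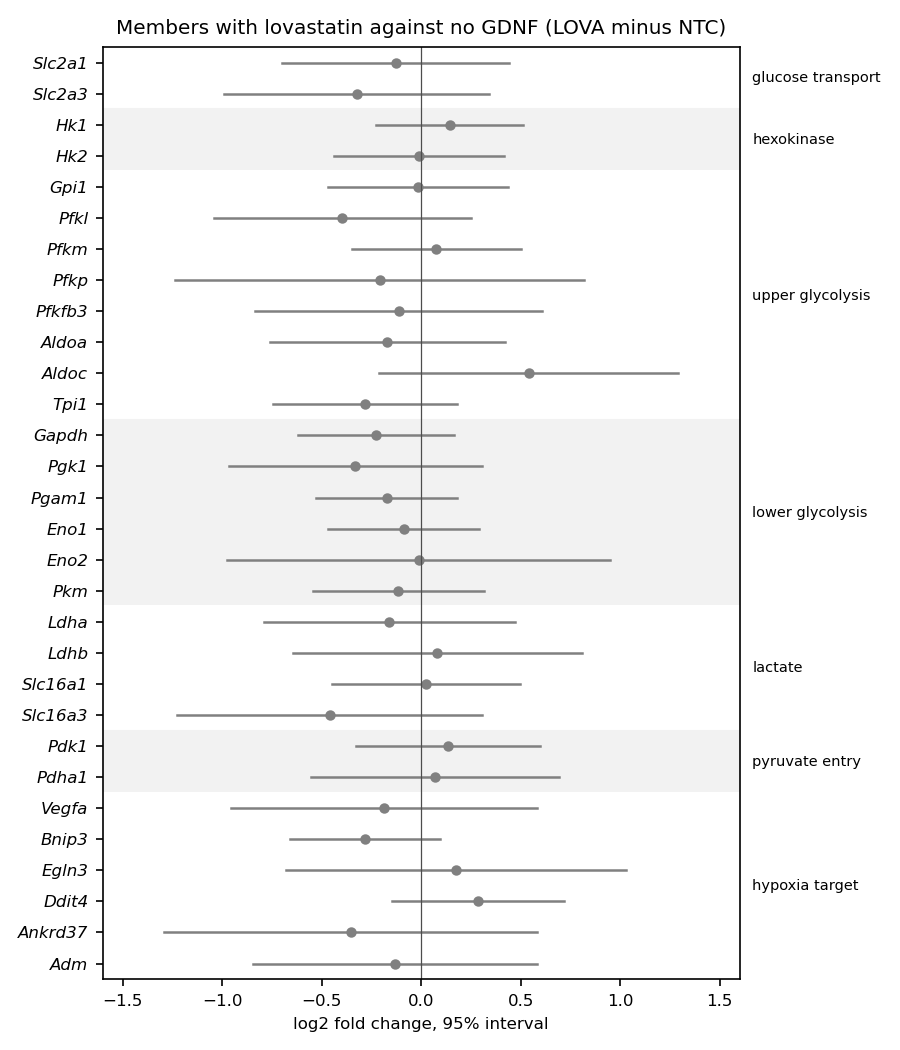
Log2 fold change in LOVA minus NTC (points, x axis) with its 95% interval (lines) for the 30 tested members (y axis, by role). Every interval includes 0; those of Aldoc and Ankrd37 reach the widest bounds, 1.29 and -1.29.

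Outside the 31 members, 88 genes of 9 further lists on the same pathways were tested. In NTC against PTC 21 were called higher and 11 lower, in LOVA against PTC 21 and 9, and in LOVA against NTC none. Of all genes tested, 21.5% and 12.9% were called higher and lower in NTC against PTC and 19.8% and 10.8% in LOVA against PTC, so the lists together lay near the share of all genes. Among the regulators of HIF, 1 of 12 was higher and 2 lower in both comparisons with PTC. Hif1a, the oxygen-regulated subunit, had 177 and 371 CPM in the LOVA libraries, 220.3 and 328 CPM in the NTC libraries and 65.5 and 89.7 CPM in the PTC libraries, and was 3.53-fold higher in NTC than in PTC (log2 1.82 ± 0.39; edgeR adjusted p = 0.0175). The libraries without GDNF were all higher, with LOVA A lowest and LOVA B highest among them. Egln2, the prolyl hydroxylase PHD1, had 67.7 and 55.2 CPM in the LOVA libraries, 60.6 and 56.4 CPM in the NTC libraries and 115 and 110.3 CPM in the PTC libraries, at -0.95 ± 0.18 in NTC minus PTC, and Cul2, the scaffold of the ligase that VHL guides, was at -0.87 ± 0.18 (edgeR adjusted p = 0.0135 and 0.0156). Scaled to germ-cell genes these turned to 0.094 and 0.18.

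Of 26 further HIF targets tested, 8 were higher and 2 lower in NTC against PTC, and 7 and 2 in LOVA against PTC. The largest were Lox and Loxl2, which crosslink collagen, the transcription factor Bhlhe40 and the lipase inhibitor Angptl4, at log2 fold changes of 3.56, 2.48, 2.71 and 2.04 in NTC minus PTC and 3.41, 2.49, 2.72 and 1.67 in LOVA minus PTC. Lox had 919 and 2439 CPM in the LOVA libraries, 1349.7 and 2373 CPM in the NTC libraries and 54.9 and 261 CPM in the PTC libraries. PTC B, which also held more fibroblast marker RNA than PTC A, had several times the Lox of PTC A; the part of feeder RNA in these values was not tested. Lower were Ak4, a mitochondrial adenylate kinase (-1.38 ± 0.29), and Kdm3a, a histone demethylase (-0.82 ± 0.18; 0.21 on the germ-cell scale).

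**Figure D5:**
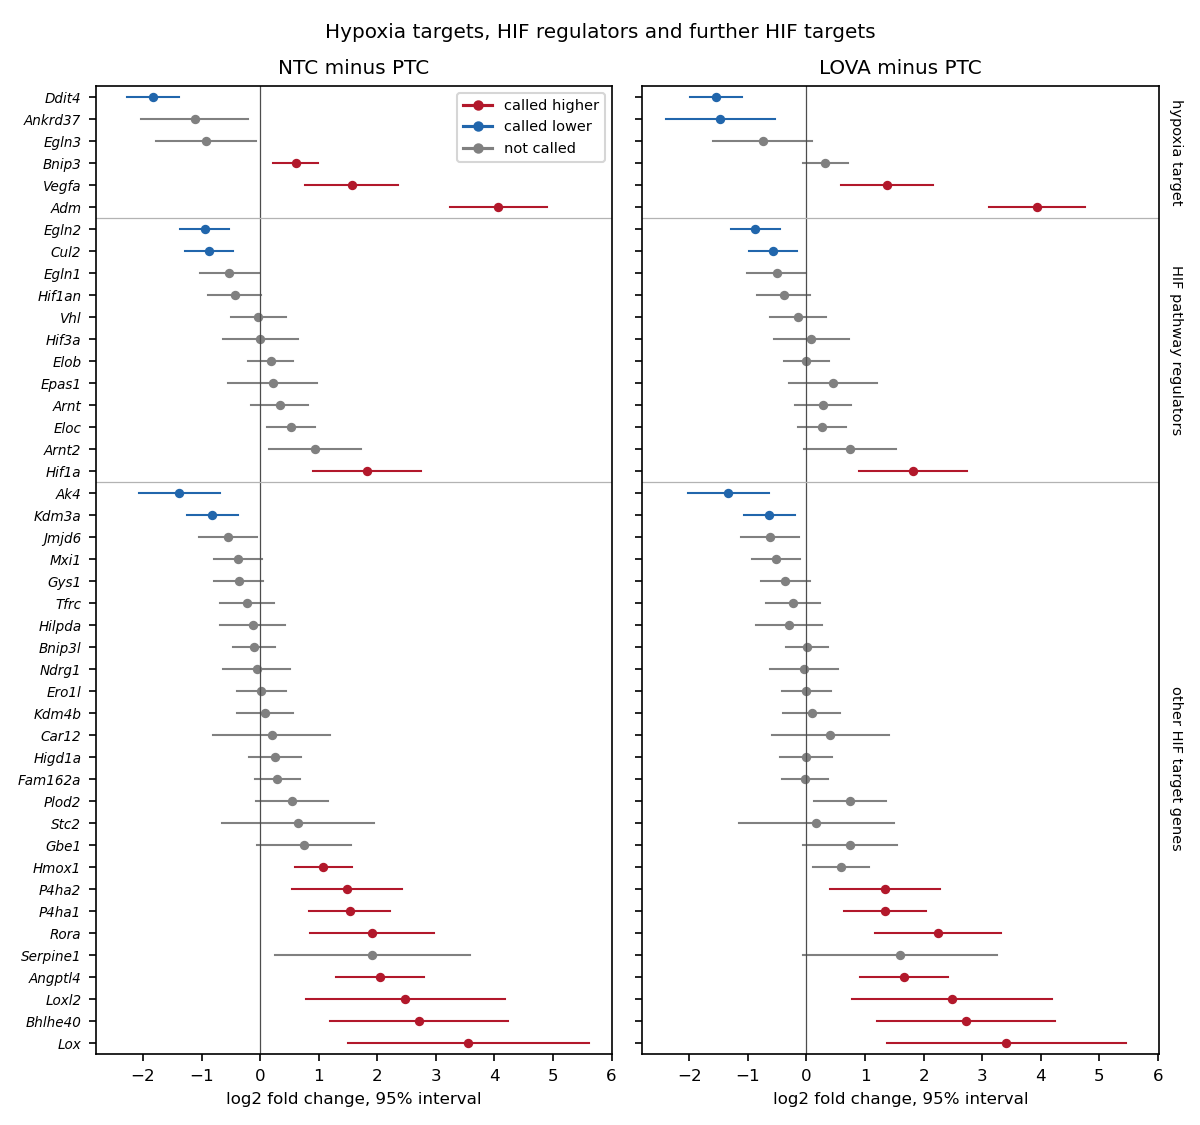
Log2 fold change (points, x axis) and 95% interval (lines) of the 6 tested hypoxia targets, 12 HIF pathway regulators and 26 further HIF targets (y axis), in NTC minus PTC on the left and LOVA minus PTC on the right; red was called higher, blue lower and grey not called. Adm and Lox lie farthest to the right, Ddit4 farthest to the left, and most regulators are grey.

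In the list on pyruvate dehydrogenase and pyruvate entry, 2 of 13 genes were higher and 3 lower in NTC against PTC. Pdk4, a kinase of the same family as Pdk1 that is known from fasting, had 40.4 and 77.9 CPM in the LOVA libraries, 51.9 and 82.2 CPM in the NTC libraries and 2.38 and 6.98 CPM in the PTC libraries. Its direction was opposite to that of Pdk1: Pdk4 was 14.1-fold higher in NTC and 12.4-fold higher in LOVA than in PTC (log2 3.81 ± 0.59 and 3.63 ± 0.59; edgeR adjusted p = 0.0108 and 0.0171). Mpc1, a subunit of the mitochondrial pyruvate carrier, had log2 fold changes of 1.41 in NTC minus PTC and 0.99 in LOVA minus PTC. Pdp2, a phosphatase that reverses the kinases, and Pcx, pyruvate carboxylase, were at -0.91 and -0.82 in NTC minus PTC, turning to 0.13 and 0.22 on the germ-cell scale.

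Of 8 pentose phosphate genes, 3 were higher and none lower in both comparisons with PTC. H6pd, the hexose-6-phosphate dehydrogenase of the endoplasmic reticulum, had log2 fold changes of 2.58 in NTC minus PTC and 2.42 in LOVA minus PTC, Rpe, an epimerase of the non-oxidative arm, at 1.40 and 1.53, and transketolase Tkt at 0.70 and 1.02. Among 11 further carriers, Slc2a9, Emb and Bsg were higher and Slc5a1 lower in both; Bsg, the chaperone of MCT1 and MCT4, had 563 and 621 CPM in the LOVA libraries, 650.4 and 713 CPM in the NTC libraries and 410.1 and 353 CPM in the PTC libraries. Of 10 other glycolytic isozymes, Pgm2 (log2 fold change 2.95) and Hk3 (2.41) were higher and Eno4 (-1.53) and Pgm1 (-0.80; 0.24 on the germ-cell scale) lower in NTC against PTC. In LOVA against PTC, Adpgk (0.57) and Pgm2 (2.95) were higher and Pgm1 (-1.03) lower. Hk3, a hexokinase known from blood cells, had 0.854 and 2.58 CPM in the LOVA libraries, 6.77 and 8.37 CPM in the NTC libraries and 1.44 and 1.41 CPM in the PTC libraries, and it was high in the NTC libraries, which also held the largest shares of macrophage markers; that part was not tested.

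Of the 4 other regulators of fructose 2,6-bisphosphate, Pfkfb4 was higher (log2 fold change 0.92) and Tigar lower (-0.92; 0.10 on the germ-cell scale) in NTC against PTC. In LOVA against PTC, Pfkfb2 was at 0.97, Pfkfb4 at 0.88 and Tigar at -0.97. Of 3 tested gluconeogenic genes, Pck2, the mitochondrial phosphoenolpyruvate carboxykinase, was higher in both comparisons (1.19 and 1.09). Of 6 isozymes of later sperm cells, only Ldhc had counts enough to be tested, and it was not called (-1.13, 95% interval -2.28 to 0.018, in NTC minus PTC).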

How the data were processed

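The authors deposited 1 table of raw counts per Ensembl gene for the 6 libraries, as whole numbers without normalization. Per the submitters' processing notes, Bowtie2, DESeq2, RSEM and Trimmomatic were used (no version or role is stated) on build mm10; strand settings of the counting are not given in the sources used here. If RSEM made the deposited counts, they are rounded estimates. Symbols, positions and exon lengths came from GENCODE M21 on the same build, which named 31363 of 31384 genes. A second identifier that carries the symbol Aldoa holds a handful of counts and was not used.

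Genes that passed edgeR's filterByExpr (16121) were scaled by TMM and fitted over all 6 libraries in edgeR 4.0.16, each group having its own coefficient (robust quasi-likelihood fit, R 4.3.3, 3 residual degrees of freedom, common biological coefficient of variation 0.260). CPM are counts divided by the TMM-scaled library total; ± after a log2 fold change is its SE, and 95% intervals come from the same fit. Libraries of the same group differed by more than sampling noise and were kept as 2 replicates. Alternatives were DESeq2 size factors, DESeq2 1.42.0, limma-voom 3.58.1, no low-count filter, only the groups compared, a block by column letter, pan-germ-cell scaling and leaving out each library. The fit was tested on simulated data. All 31 members are described, and of each other list up to 4 called genes with the largest change. The members and all lists were chosen with earlier results of these data known, so list counts are descriptions and no set was tested.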

Additional observations from a re-analysis of the deposited data

How the results depend on the processing

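Across the 13 alternatives of each comparison, no member called under TMM turned to the other direction except under pan-germ-cell scaling. There NTC minus PTC turned to 0.13 for Hk2, 0.27 for Slc2a1, 0.46 for Pkm, 0.16 for Hk1 and 0.21 for Eno1, and LOVA minus PTC to 0.071 for Hk2, 0.40 for Pgam1, 0.14 for Slc2a1, 0.32 for Pkm, 0.25 for Hk1 and 0.070 for Eno1, none called. The members called were then 10 in NTC against PTC and 8 in LOVA against PTC, beside 5088 and 4657 of all genes tested. The cause of the turn was not tested. DESeq2 gained Pdha1 and Ankrd37 in NTC against PTC, and limma-voom gained Pgam1, Pdha1 and Ldha. Calls over the whole table rose as well, from 5558 in the main fit to 6511 by DESeq2 and 6182 by limma-voom. In LOVA against NTC, the genes called in the whole table were 120 by DESeq2, 4 by limma-voom and 191 without the filter, with 0 members in each. Without the filter, NTC against PTC lost Bnip3 and gained Pfkl, Pdha1, Egln3, Ankrd37 and Ldha, and LOVA against PTC gained Aldoc. The genes called in the whole table were then 6731 in NTC against PTC and 6334 in LOVA against PTC. In fits of the 2 groups alone, NTC against PTC, with 6821 genes called, gained Pgam1, Pfkl, Pdha1 and Ldha. In the same kind of fit LOVA against PTC, with 3215 genes called, lost Pgam1, Pdha1, Pkm and Ankrd37.

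Leaving out 1 library gave 1 to 6726 genes called in NTC against PTC, 0 to 2 in LOVA against NTC and 758 to 6754 in LOVA against PTC, with 0 to 21, 0 and 4 to 20 members. The hypoxia minus enzyme median lay between -0.32 and 0.27 in NTC minus PTC. In such fits the lone library of a group is assumed to vary like the others.

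Column letters are not tied to the replicate numbers of the labels, so a block by letter was only an alternative. The A minus B deviations correlated at 0.25 to 0.37 between the 3 pairs of groups; with 2 letters a group this is a hint from the data and does not show pairing by design. With the replicate block, 24 members were called in NTC against PTC (Pgam1, Pfkl, Pfkm, Pdha1, Egln3, Ankrd37 and Ldha were gained). It called 20 in LOVA against PTC (Aldoc and Egln3 were gained) and 0 in LOVA against NTC. Of the whole table, 8053 genes were called in NTC against PTC, 7746 in LOVA against PTC and 90 in LOVA against NTC. Depth limits Car9, and 2 libraries a group limit every interval.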
